A study of Mus musculus with 12 samples.

Results

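A set of 10 genes that encode parts of the elastic fibre was followed in mouse kidney RNA-seq: *Eln*, *Fbn1*, *Fbn2*, *Mfap4*, *Mfap5*, *Fbln2*, *Fbln5*, *Emilin1*, *Lox* and *Loxl1*. They were taken by gene name from a table of 54532 genes, and all 10 passed the filter on low counts. The set was chosen by name with the CPM values and fold changes of the same 12 mice already known, among them the differences that involve cystic *Pkd2* +/+ kidneys. Those differences, also for the listed genes that follow, are therefore given as a description of the mice. They carry fold changes, standard errors and the side of the threshold but no p-values. P-values given for the other comparisons are not an independent test, because the values of those mice were known too.

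Elastic fibres give arteries, lung and skin their recoil. A core of cross-linked elastin forms on a scaffold of fibrillin microfibrils, fibulins and emilin help to place elastin on that scaffold, and lysyl oxidases join the elastin chains. In the kidney the fibres are known mainly from the walls of arteries, where smooth muscle cells make most of the elastin, and fibroblasts make many of the same proteins.

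The kidneys came from 18-day-old mice, C57BL/6 per the labels and on a C57BL/6J background per the study's methods, in 4 groups of 3. Every mouse carried the RC allele of *Pkd1*, a hypomorphic allele, together with a floxed *Pkd1* allele. Noncystic mice, written *Pkd1* RC/+, had no Cre, and cystic mice, written *Pkd1* RC/-, carried Ksp-Cre, in which the *Cdh16* promoter drives Cre in tubule epithelium. Within each of these, *Pkd2* was either +/+ or Δ17/Δ17, where Δ17 is a germline deletion of the miR-17 binding motif in the *Pkd2* 3′-UTR. Cyst formation and the presence of Cre cannot be told apart in this design, and the sex of each mouse was not given in the sources used here, although the methods state that males and females were used in equal numbers throughout. RNA of the whole kidney was sequenced, so a change in the number of cells of a type and a change in RNA per cell cannot be told apart. Mice are named by their numbers, which were 19 to 21 for noncystic *Pkd2* +/+, 22 to 24 for noncystic *Pkd2* Δ17/Δ17, 25 to 27 for cystic *Pkd2* +/+ and 28 to 30 for cystic *Pkd2* Δ17/Δ17.

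Libraries held 18800307 to 24453033 counts, with mouse 25 the deepest, and the elastic fibre genes had between 28 and 22664 counts in a mouse. Mice of a group differed by more than counting noise, with a chi-square of 8.88 to 24.3 per degree of freedom. *Pkd2* itself stood at 226 ± 11.1 CPM (SD, n = 3) in cystic *Pkd2* +/+ and 326 ± 16.7 CPM in cystic *Pkd2* Δ17/Δ17 kidneys, and at 210 ± 13.9 and 278 ± 7.68 CPM in the noncystic groups, in both pairs with every Δ17/Δ17 mouse above every +/+ mouse. CPM is the read count relative to the size of the library, corrected for its composition.

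The study removed a binding motif for miR-17 from *Pkd2*, so the 3′-UTRs of the elastic fibre genes were read for the same motif. Mature miR-17 is shown with its seed, bases 2 to 8, in capitals, together with the miR-29 family, a set of microRNAs known to act on mRNAs of the extracellular matrix. The miRNA sequences are RefSeq's for GRCm38.p6.

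mmu-miR-17-5p: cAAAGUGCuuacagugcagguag
mmu-miR-29a-3p: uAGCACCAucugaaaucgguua
mmu-miR-29b-3p: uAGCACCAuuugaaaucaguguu
mmu-miR-29c-3p: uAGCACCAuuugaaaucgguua

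The 3 forms of miR-29 share 1 seed and so 1 match. The match to the miR-17 seed, GCACTTT, was searched on the mRNA strand of the longest annotated 3′-UTR of each gene and was found in 0 of the 10 elastic fibre genes. Of the 21018 genes with an annotated 3′-UTR, 11.8% hold it. The match to the miR-29 seed, TGGTGCT, was found 11 times in 5 of the 10 genes, with 3 matches in *Eln*, 3 in *Lox*, 2 in *Fbn1*, 2 in *Mfap5* and 1 in *Fbn2*. Of the 21018 genes, 13.1% hold this match. Long 3′-UTRs hold more matches. Among genes with a 3′-UTR within 20% of the length of *Eln*'s 1188 nucleotides the share was 11.6%, and it was 26.6% for genes as long as *Lox*, at 3160 nucleotides. *Fbln5*, with the longest 3′-UTR of the 10 at 4177 nucleotides, held 0 matches to either seed, where 34.9% of genes of that length hold the miR-29 match. The reference sequences around the matches in *Eln*, *Fbn1* and *Mfap5* are shown because they place the sites in the mRNA of elastin and of proteins of the microfibril. Each line gives the mRNA strand of GRCm38 with the match in capitals.

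Eln, chr5:134703737-134703743: ctcatcaacgtTGGTGCTactgcttggtg
Eln, chr5:134703490-134703496: ccaagggaaatTGGTGCTacatgttggtg
Eln, chr5:134703477-134703483: gtgctacatgtTGGTGCTtcttctttgtg
Fbn1, chr2:125301174-125301180: tgttgtctgttTGGTGCTagtaaattctc
Fbn1, chr2:125300924-125300930: agggtttgtaaTGGTGCTtattaagacca
Mfap5, chr6:122528575-122528581: ctaattttcacTGGTGCTggtaacgtttg
Mfap5, chr6:122528798-122528804: ttttttttaaaTGGTGCTatgaattgatc

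All 7 sites lie in the last exon, which is exon 37 in *Eln*, exon 66 in *Fbn1* and exon 10 in *Mfap5*. The *Eln* sites start 38, 285 and 298 nucleotides after the stop codon, so the second and the third lie close together. Of the 11 matches, 4 were followed by an A, the longer 8-mer form, and these are the first and second *Eln* sites, the first *Fbn1* site and the second *Mfap5* site. A match is a run of letters and not a measured binding site. Levels of miR-29 were not analysed here.

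**Figure D1:**
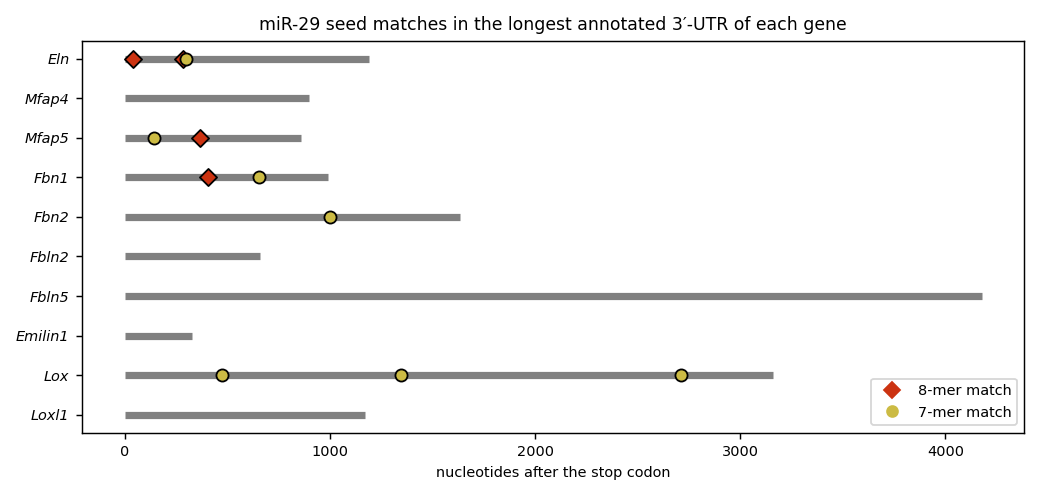
Matches to the miR-29 seed along the longest annotated 3′-UTR of each elastic fibre gene. The horizontal axis gives nucleotides after the stop codon, grey bars the 3′-UTR, diamonds 8-mer matches and circles 7-mer matches. *Eln* holds 3 matches near its start, *Lox* 3 spread over 3160 nucleotides, and *Mfap4*, *Fbln2*, *Fbln5*, *Emilin1* and *Loxl1* hold 0.

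The first comparison asked how the elastic fibre mRNAs stood in cystic against noncystic kidneys when *Pkd2* was intact. Of the 10 genes, 9 were higher in cystic kidneys, by 1.44-fold for *Fbln2* to 5.04-fold for *Mfap4*, and for these 9 every cystic mouse lay above every noncystic mouse. *Fbln5* differed from the other 9, with a level in cystic kidneys of 0.867 times the noncystic one and overlapping groups. The threshold, a Benjamini-Hochberg adjusted p of 0.05 from edgeR's quasi-likelihood test, was passed by 9 of 10 genes, all higher. In the same comparison 16.9% of the 24642 genes tested passed it as higher, 31.1% in either direction, and 22% had every cystic mouse above every noncystic mouse. These shares are the background of a choice made with this comparison known, and nothing is read from the excess. The median log2 fold change of the 10 was 1.16, and that of all genes tested was 0.02.

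The second comparison asked how the deletion of the *Pkd2* motif stood among cystic kidneys. *Eln*, *Mfap4*, *Mfap5*, *Fbln2* and *Loxl1* were lower in cystic *Pkd2* Δ17/Δ17 than in cystic *Pkd2* +/+ kidneys, at 0.439 to 0.732 times the level, and passed the threshold. *Fbn2* was at 0.671 times the level without overlap but did not pass it. *Fbn1*, *Lox*, *Emilin1* and *Fbln5* stood at 0.889 to 1.05 times the level with overlapping groups. Of all genes tested, 1.04% passed as lower and 2.23% in either direction, and 10.2% had every Δ17/Δ17 mouse below every +/+ mouse, as 6 of the 10 did. Again nothing is read from these shares, since this comparison also informed the choice. The count of 5 was 3 without mouse 27, 2 without mouse 28 and 2 without mouse 29, and *Eln* and *Mfap4* were among the genes past the threshold in each of these. The share of all genes past it in either direction was 0.527, 0.515 and 0.479% without these mice. The median log2 fold change of the 10 genes was -0.51, and that of all genes tested was 0.

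**Figure D2:**
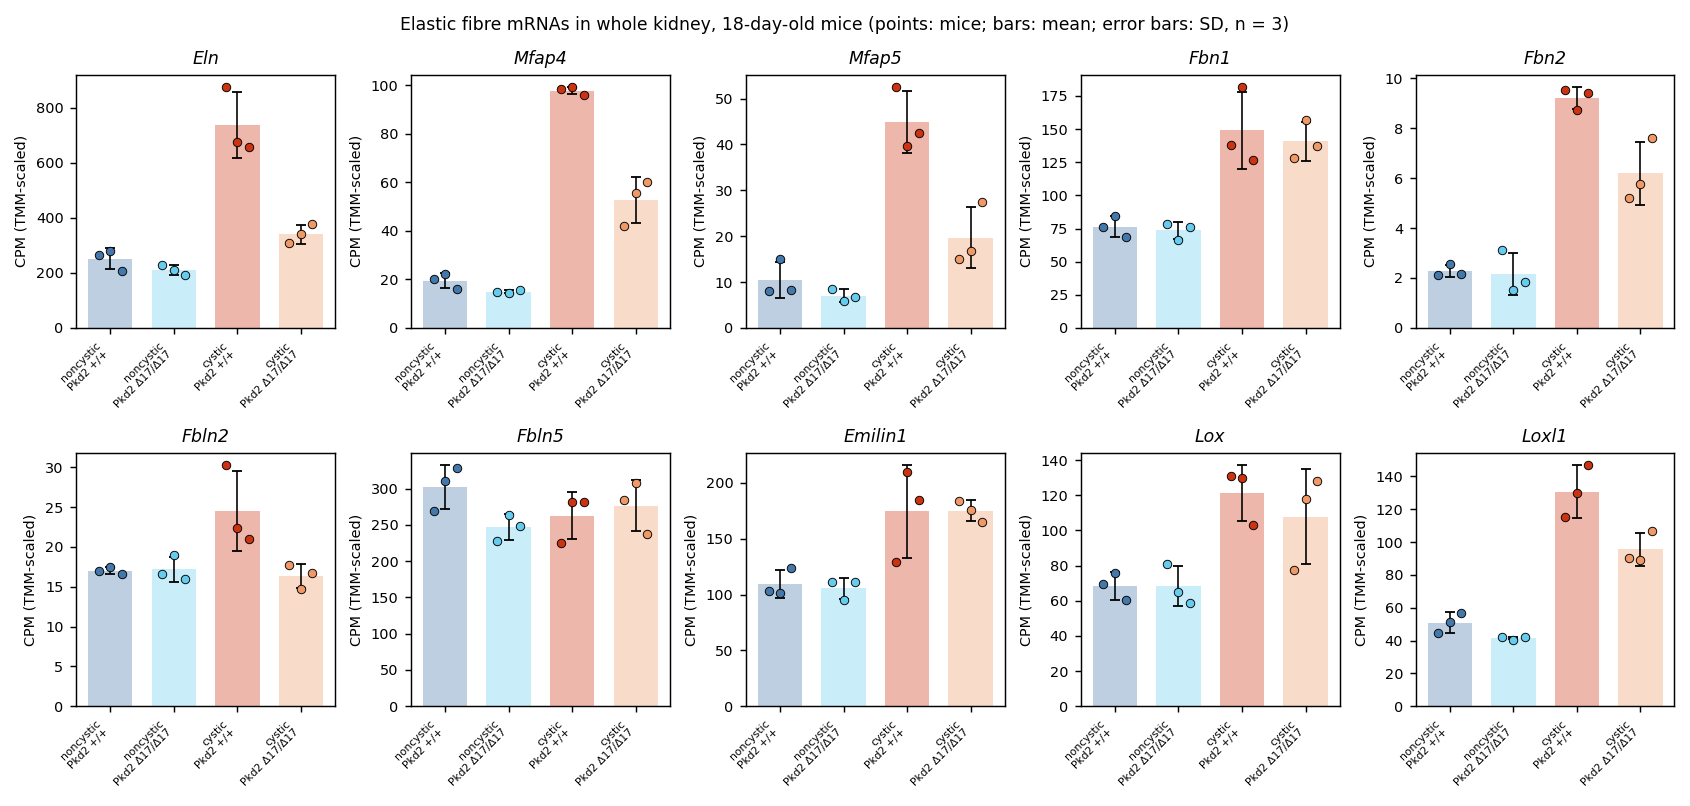
Level of each elastic fibre mRNA by mouse. The vertical axes give CPM and start at 0, points are mice, bars group means and error bars the SD (n = 3). For *Eln*, *Mfap4*, *Fbn2* and *Loxl1* the 3 cystic *Pkd2* Δ17/Δ17 mice sit between the noncystic mice and the cystic *Pkd2* +/+ mice without overlap. For *Fbln5* the groups overlap in both comparisons of cystic *Pkd2* +/+ mice.

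Summed over the 10 genes, the level was 875 to 961 CPM in noncystic *Pkd2* +/+ mice and 769 to 813 CPM in noncystic *Pkd2* Δ17/Δ17 mice. It was 1670 to 1800 CPM in cystic *Pkd2* +/+ mice and 1150 to 1280 CPM in cystic *Pkd2* Δ17/Δ17 mice. The 4 groups did not overlap in this sum. *Eln* was a large part of it, with 23.4 to 30.3% of the sum in noncystic *Pkd2* +/+ mice and 38.0 to 48.6% in cystic *Pkd2* +/+ mice. In cystic *Pkd2* Δ17/Δ17 mice its share was 26.6 to 29.8%, within the range of the noncystic *Pkd2* +/+ mice.

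*Eln* (ENSMUSG00000029675) encodes tropoelastin, the soluble monomer of the elastin core. It lies on the reverse strand of chromosome 5 from 134702593 to 134747323 in GRCm38, 30.2 Mb from *Pkd2*. Its level was 265, 281 and 208 CPM in the noncystic *Pkd2* +/+ mice and 229, 210 and 192 CPM in the noncystic *Pkd2* Δ17/Δ17 mice. In the cystic mice it was 877, 677 and 659 CPM with *Pkd2* +/+ and 307, 341 and 376 CPM with *Pkd2* Δ17/Δ17. Every cystic mouse lay above every noncystic mouse, and the lowest cystic *Pkd2* +/+ mouse lay well above the highest cystic Δ17/Δ17 mouse. The log2 fold change of cystic against noncystic kidneys was 1.55 (SE 0.13) with *Pkd2* +/+, and that of Δ17/Δ17 against +/+ in cystic kidneys was -1.11 (SE 0.13). Leaving out any 1 mouse kept the latter between -1.19 and -0.97. Among Δ17/Δ17 mice, which hold no cystic *Pkd2* +/+ kidney, *Eln* was 1.62-fold higher in cystic than in noncystic kidneys (log2 0.70, SE 0.13, edgeR quasi-likelihood test, Benjamini-Hochberg adjusted p = 0.000661, higher in 3 of 3 mice). This difference, too, was known when *Eln* was chosen.

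The microfibril scaffold came next. *Mfap4* (ENSMUSG00000042436, chromosome 11, 61485431 to 61488900) encodes a microfibril-associated glycoprotein that binds elastin and fibrillin. It stood at 20.1, 22.1 and 16.1 CPM in noncystic *Pkd2* +/+ mice and at 14.8, 14.6 and 15.6 CPM in noncystic Δ17/Δ17 mice. Cystic *Pkd2* +/+ mice were at 98.4, 99.1 and 96.0 CPM and cystic Δ17/Δ17 mice at 41.9, 55.8 and 60.1 CPM. The 4 groups were fully separate for this gene, and its spread among cystic *Pkd2* +/+ mice was the smallest of any of the 10 genes in any group, with a coefficient of variation of 1.70%. The log2 fold change was 2.33 (SE 0.13) for cystic against noncystic *Pkd2* +/+ kidneys and -0.90 (SE 0.12) for Δ17/Δ17 against +/+ in cystic kidneys. *Mfap4* overlaps *Mapk7* on the opposite strand, which had 466 to 1045 counts per mouse, and the strand setting of the counting is not given in the sources used here.

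*Mfap5* (ENSMUSG00000030116, chromosome 6, 122505845 to 122529290) encodes MAGP-2, a small protein that sits on fibrillin microfibrils. Its level was 8.05, 15.1 and 8.24 CPM in noncystic *Pkd2* +/+ and 8.56, 5.84 and 6.82 CPM in noncystic Δ17/Δ17 mice. It was 52.6, 39.6 and 42.4 CPM in cystic *Pkd2* +/+ and 15.0, 16.7 and 27.4 CPM in cystic Δ17/Δ17 mice. The lowest cystic Δ17/Δ17 mouse was level with the highest noncystic *Pkd2* +/+ mouse, and mouse 30 stood above the other 2 of its group. The log2 fold change of Δ17/Δ17 against +/+ in cystic kidneys was -1.19 (SE 0.23), between -1.50 and -1.03 when any 1 mouse was left out. The call was lost without mouse 27, 28 or 29.

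The fibrillins are the large proteins from which microfibrils are built. *Fbn1* (ENSMUSG00000027204, chromosome 2, 125300594 to 125507993), the fibrillin of adult tissue, measured 76.5 ± 7.97 CPM (SD, n = 3) in noncystic *Pkd2* +/+ and 73.6 ± 6.2 CPM in noncystic Δ17/Δ17 kidneys. In cystic *Pkd2* +/+ mice it was 138, 182 and 127 CPM and in cystic Δ17/Δ17 mice 128, 157 and 137 CPM. Here the cystic groups overlapped, with a log2 fold change of -0.08 (SE 0.12), and both lay above the noncystic mice. *Fbn2* (ENSMUSG00000024598, chromosome 18, 58008623 to 58210487), the fibrillin known mainly from embryonic tissue, was the least abundant of the 10. It was 9.52, 8.71 and 9.42 CPM in cystic *Pkd2* +/+ mice and 5.19, 5.77 and 7.60 CPM in cystic Δ17/Δ17 mice, with 1.53 to 3.11 CPM in the 6 noncystic mice. The cystic groups did not overlap, but the log2 fold change of -0.57 (SE 0.22) did not pass the threshold. Genes on the opposite strand within *Eln*, *Fbn1* and *Fbn2* had at most 8 counts in any mouse, *Gm30003* in *Eln* at most 5, *Gm9913* in *Fbn1* at most 8 and *Gm26507* in *Fbn2* at most 2.

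The fibulins and emilin showed other patterns. *Fbln5* (ENSMUSG00000021186, chromosome 12, 101746565 to 101819055) encodes a fibulin that binds elastin and lysyl oxidase-like enzymes and is needed for fibre assembly. It was 269, 310 and 328 CPM in noncystic *Pkd2* +/+, 228, 263 and 249 CPM in noncystic Δ17/Δ17, 225, 281 and 282 CPM in cystic *Pkd2* +/+, and 284, 307 and 238 CPM in cystic Δ17/Δ17 mice. All 4 groups lay within a narrow band, and the noncystic Δ17/Δ17 mice were below the noncystic *Pkd2* +/+ mice. *Fbln2* (ENSMUSG00000064080, chromosome 6, 91212455 to 91272540), a fibulin of vessel walls and basement membranes, was 30.3, 22.4 and 21 CPM in cystic *Pkd2* +/+ mice and 14.7 to 19 CPM in the other 9 mice. Mouse 25 stood above the other 2 of its group. Without mouse 25 the log2 fold change of cystic against noncystic *Pkd2* +/+ kidneys was 0.35 in place of 0.53, and the difference between the cystic groups was -0.40 in place of -0.59 and no longer passed the threshold. The call between the cystic groups was also lost without mouse 28, 29 or 30, and in a fit on the compared groups alone.

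*Emilin1* (ENSMUSG00000029163, chromosome 5, 30913402 to 30921277) encodes a glycoprotein at the interface of elastin and microfibrils. It was 129, 210 and 185 CPM in cystic *Pkd2* +/+ mice and 184, 176 and 165 CPM in cystic Δ17/Δ17 mice, against 95.0 to 124 CPM in the 6 noncystic mice. The means of the cystic groups were equal at 175 CPM, with an SD of 41.5 CPM in +/+ and 9.80 CPM in Δ17/Δ17. Like *Eln* it lies on the chromosome of *Pkd2*, 73.5 Mb away.

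The cross-linking enzymes split. *Loxl1* (ENSMUSG00000032334, chromosome 9, 58287738 to 58313186) encodes the lysyl oxidase-like enzyme most closely tied to elastin. It was 44.6, 51.3 and 57.0 CPM in noncystic *Pkd2* +/+, 42.1, 40.6 and 42.0 CPM in noncystic Δ17/Δ17, 115, 130 and 147 CPM in cystic *Pkd2* +/+, and 90.4, 89.1 and 107 CPM in cystic Δ17/Δ17 mice. These 4 groups were separate, with a log2 fold change of 1.36 (SE 0.11) for disease and of -0.45 (SE 0.10) for the deletion in cystic kidneys. The deletion call was lost without mouse 26, 27, 28 or 29, and in a fit on the compared groups alone. *Lox* (ENSMUSG00000024529, chromosome 18, 52516067 to 52529867), which cross-links both collagen and elastin, was 58.9 to 81.1 CPM in the 6 noncystic mice. It was 131, 130 and 103 CPM in cystic *Pkd2* +/+ and 77.2, 118 and 128 CPM in cystic Δ17/Δ17 mice. Mouse 28 stood below the other 2 of its group, and the cystic groups overlapped, with a log2 fold change of -0.17 (SE 0.16). *Lox* shares exon sequence with the annotated gene *AC161119.1*, which was not among the counted genes, so its reads could not be checked.

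Levels can be set side by side between genes only per length, here CPM per kilobase of merged exons. Merged exons join those of all annotated transcripts of a gene, 8098 bases for *Eln* and 6911 for *Fbln5*. They can be longer than the mRNA itself, so the order between genes depends on this choice of length. In noncystic *Pkd2* +/+ kidneys the order began with *Fbln5* at 43.8 ± 4.39 CPM per kilobase (SD, n = 3), then *Eln* at 31.0 ± 4.72, *Emilin1* at 22.1 ± 2.59, *Loxl1* at 15.5 ± 1.88, *Lox* at 14.3 ± 1.65 and *Mfap4* at 10.1 ± 1.59. *Loxl1* and *Lox* did not differ beyond their spread in that order. In cystic *Pkd2* +/+ kidneys *Eln* stood first at 91.1 ± 15.0 CPM per kilobase, followed by *Mfap4* at 50.9 ± 0.863. *Loxl1* at 39.7 ± 4.93, *Fbln5* at 38.0 ± 4.71 and *Emilin1* at 35.4 ± 8.41 followed within each other's spread. With the motif deleted in cystic kidneys, *Eln* at 42.2 ± 4.28 and *Fbln5* at 40.0 ± 5.07 CPM per kilobase did not differ beyond their spread. The lowest level was that of *Fbn2* in every group, between 0.163 and 0.698 CPM per kilobase.

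Among noncystic kidneys the motif deletion was tested in 6 mice that do not enter the comparison of cystic kidneys. Its *Pkd2* +/+ mice do enter the comparison of cystic with noncystic kidneys, and the fit used all 12 mice. The values were known when the genes were chosen, so this is not an independent test. None of the 10 genes passed the threshold in edgeR's quasi-likelihood test (0 of 10, adjusted p from 0.771 to 1), nor in DESeq2's Wald test (0 of 10), and of all genes tested 0.00406% passed. At an unadjusted p under 0.05 there were 4 genes, *Mfap4*, *Mfap5*, *Fbln5* and *Loxl1*, where 1555 of the 24642 genes tested were under it. Without the filter on low counts *Mfap5* passed in edgeR's test (adjusted p = 0.0242), as did 0.374% of all genes. *Mfap4*, *Fbln5* and *Loxl1* had every Δ17/Δ17 mouse below every +/+ mouse, as had 5.09% of all genes tested. Log2 fold changes ran from -0.56 (SE 0.26) for *Mfap5* to 0.01 (SE 0.14) for *Fbln2*, with -0.26 (SE 0.13) for *Eln* and -0.37 (SE 0.13) for *Mfap4*. The median of the 10 was -0.17, and that of all genes was 0.01.

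Among Δ17/Δ17 mice, 8 of the 10 genes were higher in cystic than in noncystic kidneys, where 12.8% of all genes tested passed as higher and 23% in either direction. This comparison shares its 3 cystic Δ17/Δ17 mice with the comparison of cystic kidneys. Its values, too, were known when the genes were chosen, so its adjusted p-values are not an independent test of them. *Mfap4* was 3.50-fold higher (log2 1.81, SE 0.13, adjusted p = 1.66e-07), *Fbn2* 2.87-fold (adjusted p = 0.000179) and *Mfap5* 2.78-fold (adjusted p = 0.000362), by edgeR's quasi-likelihood test. Among these mice the mRNAs of these microfibril proteins were higher in cystic kidneys with the motif deleted as well. *Loxl1* was 2.30-fold higher (adjusted p = 1.08e-06), *Fbn1* 1.91-fold (adjusted p = 3.45e-05), *Emilin1* 1.65-fold (adjusted p = 0.00085) and *Lox* 1.58-fold (adjusted p = 0.00646), by the same test. *Lox* had overlapping groups, and the other 7 genes had every cystic mouse above every noncystic mouse, as had 20.2% of all genes. *Fbln2* with a log2 fold change of -0.07 (SE 0.14, adjusted p = 0.787) and *Fbln5* with 0.16 (SE 0.11, adjusted p = 0.345) did not pass in edgeR's test. With library totals as the scaling *Fbln5* passed, at 0.31, where 28.4% of all genes passed in either direction. The median over the 10 genes was 0.84, and over all genes 0.

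**Figure D3:**
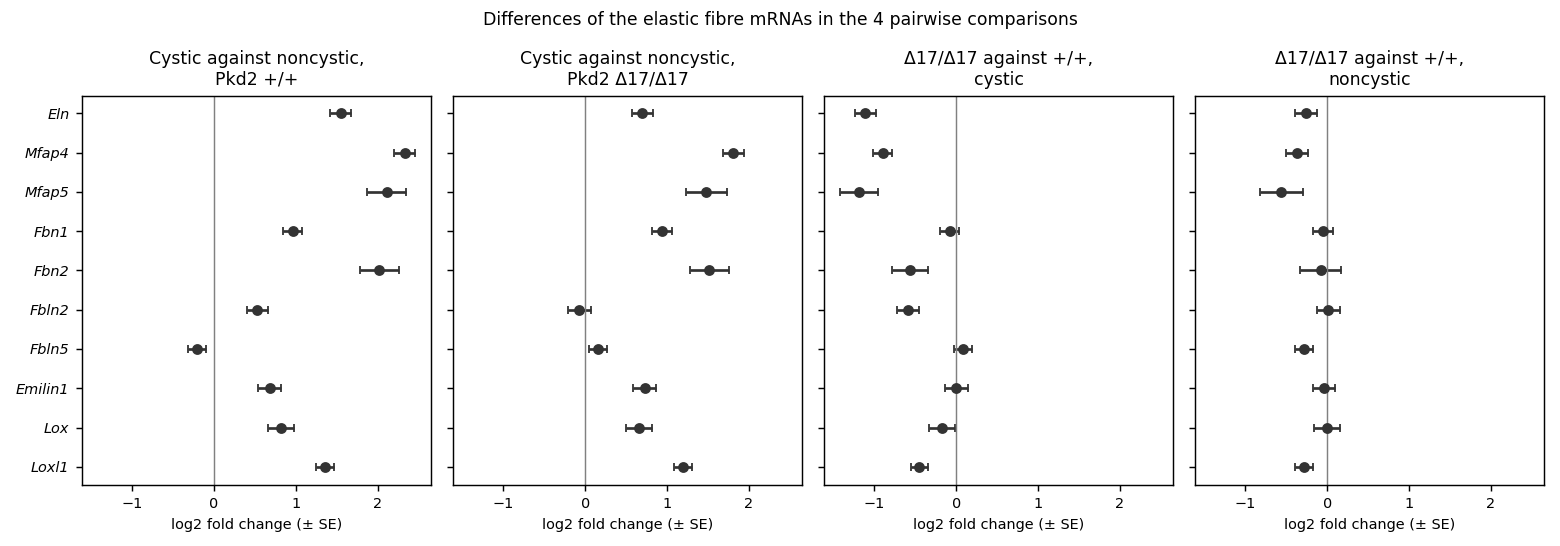
Log2 fold changes of the elastic fibre mRNAs in the 4 pairwise comparisons. Points are estimates from the fit over 12 mice, bars 1 standard error, and the vertical line marks no difference. *Mfap4* and *Mfap5* lie far right in both comparisons of cystic with noncystic kidneys (2.33 and 2.11 with *Pkd2* +/+, 1.81 and 1.48 with Δ17/Δ17), and *Fbn1*, *Emilin1* and *Fbln5* lie near 0 for the deletion in cystic kidneys.

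Whether the effect of the deletion differed between cystic and noncystic kidneys was taken from the interaction of both factors. The largest difference was that of *Eln*, at -0.86 (SE 0.18) on the log2 scale, followed by *Mfap5* at -0.63 (SE 0.35), *Fbln2* at -0.60 (SE 0.19) and *Mfap4* at -0.53 (SE 0.18). *Fbn1* at -0.02 (SE 0.17) and *Emilin1* at 0.05 (SE 0.19) were near 0. In edgeR's test 0 of the 10 genes passed, where 0.0122% of all genes tested passed. An unadjusted p under 0.05 was reached by 4 of the 10 and by 2053 of the 24642 genes tested. DESeq2 called 1, *Eln*, where 0.431% of all genes passed. Without the filter on low counts edgeR's test called 2, *Eln* and *Mfap4*, where 1.71% of all genes passed. This interaction holds the cystic *Pkd2* +/+ mice known when the genes were chosen, so the counts are a description.

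Markers of the cells that a kidney holds moved with these groups, and their part in the results was not tested. Cell type lists were counted in the same fit, and in no list was a marker at 0 in all mice of a group. Between cystic and noncystic *Pkd2* +/+ kidneys, 16.9% of all genes tested passed as higher and 14.2% as lower. Of 14 markers of smooth muscle and mural cells 5 were higher and 1 was lower. Their summed level was 946 to 1340 CPM against 728 to 843 CPM. *Acta2*, a smooth muscle actin that myofibroblasts also make, was among the higher, at 2.05 (SE 0.19) on the log2 scale. Its mean was 448 against 108 CPM, and that of the mural sum was 1160 against 782 CPM. *Acta2* alone was thus most of the rise in that sum, and 8 of the 14 mural markers did not pass. Of 10 fibroblast markers 5 were higher and 2 lower, with sums of 3040 to 4480 against 2030 to 2210 CPM. Collagen mRNAs weighed most in the fibroblast sum, with *Col1a1* at a mean of 765 against 276 CPM. *Pdgfra* was lower, at 89.6 against 132 CPM. Both sums were higher in cystic kidneys without overlap, as were those of the 7 macrophage markers, at 304 to 413 against 130 to 139 CPM. Sums of endothelial markers (823 to 980 against 1350 to 1490 CPM) and of tubule and podocyte markers (4960 to 6820 against 8450 to 10500 CPM) were lower. Of the 4 fat tissue markers 3 were lower and 1, *Lep*, was higher, and their sums of 23.8 to 56.5 against 77.7 to 210 CPM did not overlap.

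Between the cystic groups few markers passed, where 1.04% of all genes tested passed as lower and 2.23% in either direction. Of the 14 mural markers 0 passed the threshold, and their sums overlapped, at 1060 to 1070 CPM with Δ17/Δ17 against 946 to 1340 CPM with +/+. Of the 10 fibroblast markers 1 passed as lower, *Pi16*, and the sums of 2760 to 3760 and 3040 to 4480 CPM overlapped. The sum of the 10 elastic fibre genes did not overlap between the same mice. Those genes were chosen with this comparison known, and the part of cell types in their difference was not tested. Macrophage markers were lower in 3 of 7, *Cd68*, *C1qa* and *C1qb*, and their sums of 229 to 289 against 304 to 413 CPM did not overlap. Among endothelial markers 1 of 10 was higher, *Tek*, and among tubule and podocyte markers 1 of 8, *Lrp2*. Of the fat tissue markers 0 of 4 passed, and of the mesothelium and urothelium markers 0 of 6.

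Among Δ17/Δ17 mice, 4 of 14 mural markers were higher and 1 lower in cystic kidneys, with sums of 1060 to 1070 against 700 to 768 CPM, and 5 of 10 fibroblast markers were higher, with sums of 2760 to 3760 against 1720 to 2140 CPM. Of all genes tested, 12.8% passed there as higher and 10.2% as lower. Neither sum overlapped, and the 8 elastic fibre genes that were higher in this comparison moved with them. *Acta2* was again most of the mural difference, at a mean of 337 against 88.1 CPM where the mean sum was 1060 against 723 CPM. In the noncystic comparison of the deletion 0 markers of either list passed in edgeR's test, where 0.00406% of all genes passed. The sums overlapped, at 700 to 768 against 728 to 843 CPM for mural cells and 1720 to 2140 against 2030 to 2210 CPM for fibroblasts.

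The other genes of elastic fibre assembly, cross-linking and turnover were counted as a list of 49 genes, all of which were tested. The list was made with earlier results of these mice known, so its counts, too, are a description. Between cystic and noncystic *Pkd2* +/+ kidneys 21 rose and 9 fell, where 16.9% of all genes tested rose and 14.2% fell. Between the cystic groups 0 rose and 4 fell, where 1.04% of all genes tested fell and 2.23% passed in either direction. In the noncystic comparison of the deletion 0 of 49 passed in edgeR's test and 0 in DESeq2's. Among Δ17/Δ17 mice 20 rose and 10 fell in cystic kidneys, where 12.8% of all genes tested rose and 10.2% fell. Median log2 fold changes of the list were 0.25, -0.07, -0.08 and 0.27 in these comparisons.

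Among other fibulins, microfibril and emilin proteins, 4 of 9 rose in cystic *Pkd2* +/+ kidneys and 1 fell. *Efemp1*, a fibulin of thin connective tissue, rose by 1.55 on the log2 scale (SE 0.09), from 43.1 ± 1.04 to 126 ± 12.8 CPM (SD, n = 3). In cystic Δ17/Δ17 kidneys it was 96.2 ± 10 CPM, a log2 difference of -0.39 (SE 0.09) past the threshold. That call was lost without mouse 25, 26, 28 or 29, with *Xist* as a covariate, and in a fit on the compared groups alone.

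TGF-beta is stored in the matrix by latent binding proteins that attach to fibrillin. Of 7 such genes 5 rose and 1 fell in cystic *Pkd2* +/+ kidneys. *Tgfb2* rose by 2.24 (SE 0.20), *Ltbp2* by 1.91 (SE 0.33) and *Tgfb3* by 1.56 (SE 0.16) on the log2 scale. *Tgfb3*, a ligand, was the member of this group that passed between the cystic groups, at 15.2 ± 1.12 CPM with +/+ and 9.54 ± 1.68 CPM with Δ17/Δ17 (log2 -0.67, SE 0.15). That call was lost without mouse 27, 28 or 29, and in a fit on the compared groups alone.

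Enzymes that break down elastin and their inhibitors moved both ways, with 6 of 13 up and 3 down in cystic *Pkd2* +/+ kidneys. *Timp1*, an inhibitor of metalloproteinases, rose by 3.45 (SE 0.39), *Ctss*, a lysosomal elastase of macrophages, by 2 (SE 0.20), and *Mmp14*, a membrane-bound metalloproteinase, by 1.12 (SE 0.10), on the log2 scale. *Mmp12*, the macrophage elastase, rose by 2.65 (SE 0.48), at low counts. *Mmp9*, a gelatinase, fell by 2.66 on the log2 scale (SE 0.34) and *Cela1*, a serine elastase, fell by 1.03 (SE 0.17). Between the cystic groups *Ctss* fell from 46.1 ± 12.6 to 19.9 ± 5.14 CPM (log2 -1.21, SE 0.19) and *Mmp12* from 3.35 ± 1.91 to 0.547 ± 0.402 CPM (log2 -2.61, SE 0.47). The *Mmp12* call was lost without mouse 28 or 29, and in a fit on the compared groups alone. Macrophages are known to make both enzymes. The summed macrophage markers were lower in the same mice, at 229 to 289 against 304 to 413 CPM, and their part in the result was not tested.

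Of the other cross-linking and lysyl oxidase processing genes 4 of 6 rose, of the ADAMTS and ADAMTS-like microfibril proteins 1 of 6 rose, and of the elastin and microfibril receptors 1 of 8 rose and 4 fell in cystic *Pkd2* +/+ kidneys. In these 3 groups 0 genes passed between the cystic groups in edgeR's test. Over the whole list the 4 genes past the threshold there became 9 without mouse 30 and 1 without mouse 28 or mouse 29.

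**Figure D4:**
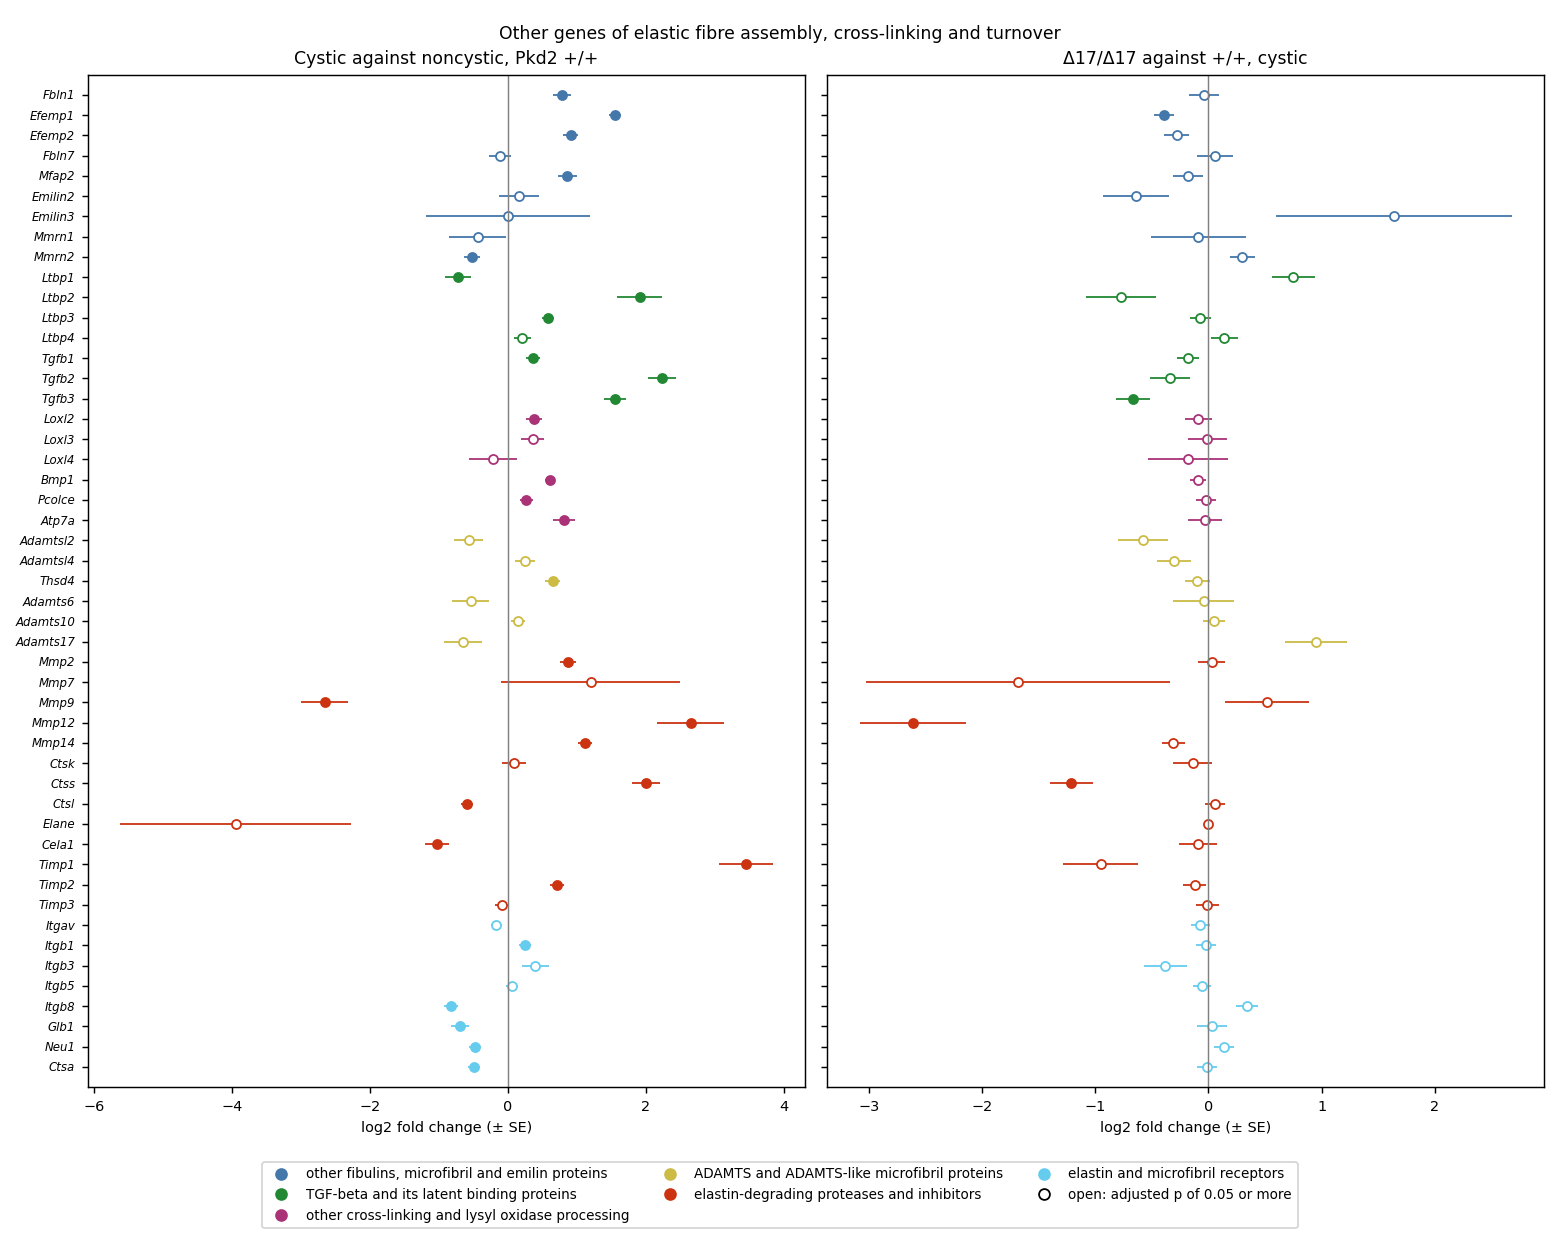
Log2 fold changes with standard errors for the 49 other genes of elastic fibre assembly, cross-linking and turnover, coloured by role. Filled points passed an adjusted p of 0.05 and open points did not, and the horizontal scales of the panels differ. The left panel (cystic against noncystic, *Pkd2* +/+) holds 30 filled points and the right panel (Δ17/Δ17 against +/+ in cystic kidneys) holds 4, *Efemp1*, *Tgfb3*, *Mmp12* and *Ctss*, all left of 0.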

How the data were processed

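RNA-seq of whole kidneys covered 12 mice, 3 in each of 4 groups, which were taken from the sample labels. The authors deposited raw whole-number counts per gene. Per the submitters' processing notes, reads were trimmed with Trim Galore 0.6.3 and aligned to GRCm38 with STAR 2.5.3a, and the strand column is not given in the sources used here. Genes with an identifier but no name (343) held 0.0225% of counts and stayed in the fit. Of the identifiers, 54495 (99.93%) matched GENCODE M21, the source of coordinates and 3′-UTRs.

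Counts were fitted in R 4.3.3 with edgeR 4.0.16 (quasi-likelihood test, TMM factors of 0.933 to 1.08, 1 mean per group, 8 residual degrees of freedom). The filter kept 24642 genes whose mean log2CPM was -3 or more, p-values were Benjamini-Hochberg adjusted over all of them, and the threshold was 0.05. The fit was tested on simulated data. The alternatives were scaling by library totals, scaling by DESeq2's size factors, DESeq2 1.42.0's Wald test, limma-trend (limma 3.58.1, library totals, prior count 3), no filter, at least 10 counts in every mouse, *Xist* as a covariate, the compared groups alone, an adjusted p under 0.01, and each mouse left out in turn.

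The 10 genes and the lists were chosen with earlier results of these data known. Named were all 10 genes, listed genes called for disease with *Pkd2* +/+ at an absolute log2 fold change of at least 1, and listed genes called between the cystic groups. From the marker lists, *Acta2*, *Col1a1*, *Pdgfra*, *Lep* and the markers past the threshold between the cystic groups were named after their values were seen.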

Additional observations from a re-analysis of the deposited data

Results flagged for a closer look

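In *Mmp12*, the macrophage elastase, the difference with the deletion pointed opposite ways in cystic and noncystic kidneys. The log2 fold change of Δ17/Δ17 against +/+ was -2.61 (SE 0.47) in cystic kidneys, where every Δ17/Δ17 mouse lay below every +/+ mouse. Of all genes tested, 10.2% had this separation. In noncystic kidneys the log2 fold change was 0.77 (SE 0.52), which did not pass the threshold, and every Δ17/Δ17 mouse lay above every +/+ mouse. The levels were low, at 7 to 12 counts in noncystic +/+ mice and 14 to 21 in noncystic Δ17/Δ17 mice, 43 to 143 in cystic +/+ mice and 6 to 21 in cystic Δ17/Δ17 mice. The separation of the mice is not a test of the difference, because the gene was flagged for having groups separate in opposite directions. In the interaction of edgeR's fit the difference was -3.38 (SE 0.70), which did not pass the threshold. With 3 mice in a group, single mice were not screened as outliers.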

How the results depend on the processing

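No paired analysis was made. The mouse numbers 19 to 30 are unique and do not tell whether mice of different groups were littermates. The count of elastic fibre genes past the threshold was 9 between cystic and noncystic *Pkd2* +/+ kidneys under every alternative, and 8 or 9 among Δ17/Δ17 mice. Between the cystic groups it was 5, and it was 3 with the compared groups alone, 2 at an adjusted p under 0.01, and 2 to 4 with each cystic mouse left out. In noncystic kidneys 0 became 1 (*Mfap5*) without the filter on low counts, where 0.374% of all genes passed. In the interaction 0 became 1 (*Eln*) with DESeq2 and 2 without the filter, where 0.431 and 1.71% of all genes passed. In the list of 49 genes, 4 between the cystic groups became 11 without the filter, 1 with the compared groups alone, 2 at an adjusted p under 0.01, and 1 to 9 with each mouse left out, and in noncystic kidneys 0 became 1 without the filter. The cause of these changes was not tested.

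Signs turned for log2 fold changes close to 0, none of them called. For the deletion in noncystic kidneys with each mouse left out, *Fbn1* ran from -0.13 to 0.01, *Fbn2* from -0.46 to 0.11, *Fbln2* from -0.07 to 0.06, *Emilin1* from -0.11 to 0.05 and *Lox* from -0.16 to 0.09. *Fbln2* was -0.05 with *Xist* as a covariate, and *Lox* 0.01 with library totals, 0 with limma-trend and 0 with at least 10 counts in every mouse. Among Δ17/Δ17 mice, cystic against noncystic, *Fbln2* was 0.08 with library totals and 0.08 with limma-trend, and -0.13 to 0 with each mouse left out. Between the cystic groups, with each mouse left out, *Fbn1* ran from -0.18 to 0.09, *Fbln5* from -0.03 to 0.17, *Emilin1* from -0.17 to 0.16 and *Lox* from -0.31 to 0.02, and in the interaction *Fbn1* ran from -0.13 to 0.15, *Emilin1* from -0.13 to 0.20 and *Lox* from -0.31 to 0.03. With library totals the median of all genes moved to 0.18 between cystic and noncystic *Pkd2* +/+ kidneys and to 0.15 among Δ17/Δ17 mice, and *Fbln5* then passed in the latter.

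Over all genes, the calls between the cystic groups were 549, with 921 by DESeq2, 1639 without the filter, 167 with the compared groups alone, and 118 (without mouse 29) to 861 (without mouse 25) with each mouse left out, among them 127 without mouse 28 and 130 without mouse 27. *Fbn2*, at 28 counts in its lowest mouse, rests on the smallest counts of the 10 genes.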
